A study of Mus musculus with 40 samples.

Results

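The libraries described here are the 4 of mouse hematopoietic progenitor cells labelled FLT3-ITD/Runx1-HET and the 4 labelled FLT3-ITD, all at 14 days of age (P14). They were taken by their group label and are 8 of the 24 P14 samples and of 40 samples in the series. The source label gives the cells as hematopoietic progenitor or MPP (multipotent progenitor), and RNA was measured by sequencing as read counts per gene. FLT3-ITD is an internal tandem duplication in a receptor tyrosine kinase, which both groups carry. Runx1-HET is heterozygosity for Runx1, and the labels do not describe the allele, the zygosity of FLT3-ITD or the sort of the cells. Libraries labelled Runx1-HET (4) and wild type (4), also at P14, carry no FLT3-ITD and served to measure the same Runx1-HET step without it. Nothing in the labels says that libraries of a group come from separate animals, so p-values measure the spread between these libraries.

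The RUNX proteins bind DNA together with their partner CBFB and regulate transcription in blood cells. RUNX1 is needed for the first hematopoietic stem cells of the embryo, and in the adult it acts in megakaryocytes and in lymphoid development, where it works beside EBF1 in early B cells. FLT3 is a cytokine receptor of early lymphoid and myeloid progenitors, and its internal duplication signals without ligand, in part through STAT5. Lesions of RUNX1 and FLT3-ITD occur together in acute myeloid leukemia. The comparison measures what the second lesion adds to cells that already have the first.

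Depth was 16.2 to 27.3 M counts per library. Levels are given in CPM, a gene's counts as a share of the library size scaled by TMM (so genes are not compared per length), and each list of 4 values runs from library 1 to 4. Log2 fold changes are FLT3-ITD/Runx1-HET over FLT3-ITD unless another pair is named (4 libraries a group). The value after ± is their standard error in the fitted model, which draws on the spread in all 24 libraries and 6 groups of the fit. It is thus not the spread of the compared groups alone. With only the 2 groups in the fit it was smaller for Sparc (0.17) and larger for Clec12a (0.44) than the values given below. The log2 fold changes and the adjusted p-values come from edgeR's quasi-likelihood test with Benjamini-Hochberg adjustment over 14394 genes. A gene passed, and is said to have risen or fallen, at an adjusted p under 0.05. On the first principal component of the 8 libraries (40.9% of variance) the FLT3-ITD libraries lay at -47.0 to -23.3. Of the FLT3-ITD/Runx1-HET libraries, 3 lay at 37.1 to 41.9 and library 3 at 8.66, and on the second component (13.3%) library 3 was at -47.3. All 4 FLT3-ITD libraries had Y-linked counts and almost no Xist, as did libraries 3 and 4 of FLT3-ITD/Runx1-HET, whereas libraries 1 and 2 of that group expressed Xist. Libraries 1, 3 and 4 of wild type and 1, 2 and 3 of Runx1-HET expressed Xist. Library 2 of wild type and library 4 of Runx1-HET had Y-linked counts. Sex was thus unevenly spread over the groups, and its part in the results was not tested beyond 2 fits, one with a term for sex and one with both Xist libraries left out, the latter chosen after seeing the data and leaving 2 heterozygous libraries. Calls that either fit ended are given beside many of the genes or their lists, for FLT3-ITD/Runx1-HET over FLT3-ITD and for the interaction. For Runx1-HET over wild type, single genes were not followed in these fits.

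Markers of stem and progenitor cells were well expressed in all 8 libraries. Kit, the stem cell factor receptor, was at 882, 783, 734 and 823 CPM in FLT3-ITD and at 682, 707, 557 and 486 in FLT3-ITD/Runx1-HET. Cd34, a sialomucin of progenitors, was at 2090.0, 2091, 2149.8 and 2184 CPM against 1739, 1919, 2262 and 1782 in FLT3-ITD/Runx1-HET. Cd48, a SLAM family receptor of multipotent progenitors, rose by 0.73 ± 0.14 on the log2 scale (adjusted p = 0.00127), from 709, 635, 773 and 800.0 to 1082, 1237, 1310.2 and 1197 CPM, with no overlap. Kit, Flt3 and Ly6a fell, by log2 fold changes of -0.41, -0.28 and -0.55 (adjusted p = 0.0401, 0.0399 and 0.0425). Those calls depended on the libraries and the fit, as given below. Cd34, Ptprc and Myb did not pass. Summed levels of lists of other cell types were above 0, which does not by itself show such cells. The summed level of 17 tested T-lineage and NK genes was 585 to 637 CPM in FLT3-ITD and 446 to 545 in FLT3-ITD/Runx1-HET, with Cd3e at 0 in all 8 libraries. That of 18 mast cell, basophil and eosinophil genes, which include Kit and Gata1, was 817 to 949.8 and 534 to 766 CPM, with Fcer1a at 0. That of 14 B-lineage genes was 406 to 945 and 291 to 349 CPM, with Ms4a1 at 0, and that of 3 hepatocyte genes 25.1 to 28.7 and 24.5 to 29.8 CPM, with Alb at 0. Such sums can rest on a few members: Kit made up most of the sum of the mast cell list. The mean log2 CPM over the 14 B-lineage genes was 2.84 to 5.24 in FLT3-ITD and only -0.28 to 0.28 in FLT3-ITD/Runx1-HET.

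Runx1 itself (chr16:92601466-92826149, minus strand, GRCm38, GENCODE M21) was not lower in the heterozygous libraries. It was at 66.5, 54.2, 49.95 and 66.7 CPM in FLT3-ITD and at 84.7, 75.9, 77.1 and 81.9 in FLT3-ITD/Runx1-HET. All 4 heterozygous libraries were above the highest FLT3-ITD library, and the log2 fold change was 0.43 ± 0.13 (adjusted p = 0.034). The call was lost when library 2 or 3 of FLT3-ITD, or 1, 2 or 4 of FLT3-ITD/Runx1-HET, was left out (adjusted p over the 8 leave-one-out fits 0.0295 to 0.121, log2 fold change 0.35 to 0.49). It was also lost with the sex term (adjusted p = 0.0867) and without both Xist libraries (0.187). Without FLT3-ITD the levels were 52.2 ± 5.1 CPM in Runx1-HET and 49.6 ± 7.58 in wild type (SD, n = 4), a log2 fold change of 0.074 ± 0.13 (adjusted p = 0.916). A count over the whole gene includes transcripts of an altered allele, so these values do not check the genotype. The gene family showed little else: Runx2 had a log2 fold change of 0.032 ± 0.098, Runx3 of 0.0071 ± 0.10 and Cbfb, the DNA-binding partner, of 0.29 ± 0.11, and none of them passed.

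Flt3 (chr5:147330741-147400489, minus strand) was at 702, 777, 701 and 752 CPM in FLT3-ITD and at 636, 604, 613 and 554 in FLT3-ITD/Runx1-HET. The groups did not overlap, and the log2 fold change was -0.28 ± 0.086 (adjusted p = 0.0399). This call was lost without library 1, 2 or 4 of FLT3-ITD, or 2 or 4 of FLT3-ITD/Runx1-HET (adjusted p over the 8 leave-one-out fits 0.0475 to 0.16), with the sex term (adjusted p = 0.0753) and without both Xist libraries (0.117). Without FLT3-ITD, Flt3 was at 1372 ± 138 CPM in wild type and 1079 ± 126 in Runx1-HET (SD, n = 4), a log2 fold change of -0.35 ± 0.086 (adjusted p = 0.049). The difference of the 2 changes was 0.062 ± 0.12 (adjusted p = 0.91).

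Adding Runx1-HET to FLT3-ITD raised 476 genes and lowered 561 of the 14394 tested, which is 3.31% and 3.9% of them (7.2% in all). Counts of list members below are to be read beside these shares. Of the genes that rose, 264 changed at least 2-fold and 110 at least 4-fold, and of those that fell, 227 and 92. The median size of the log2 fold change was 1.17 among the former and 0.74 among the latter. Every library of one group was above every library of the other in 788 of the 1037 genes, which is 5.47% of all genes tested. Without regard to the test, such separation held for 12.4% of all genes (6.04% with FLT3-ITD/Runx1-HET higher and 6.32% with it lower). Genes named below for the largest changes or interactions were chosen only among genes with such separation. Their lack of overlap was thus fixed by the choice and is given as a description. Leaving out both Xist libraries gave 150 genes higher and 263 lower, and a term for sex in the fit gave 307 and 432. The counts of rises and falls were 838 and 783 without library 3 of FLT3-ITD/Runx1-HET, 292 and 395 without its library 2, 301 and 337 without its library 4, and 279 and 345 without library 2 of FLT3-ITD. Leaving out any of the other 4 libraries gave 346 to 431 rises and 430 to 504 falls.

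**Figure D1:**
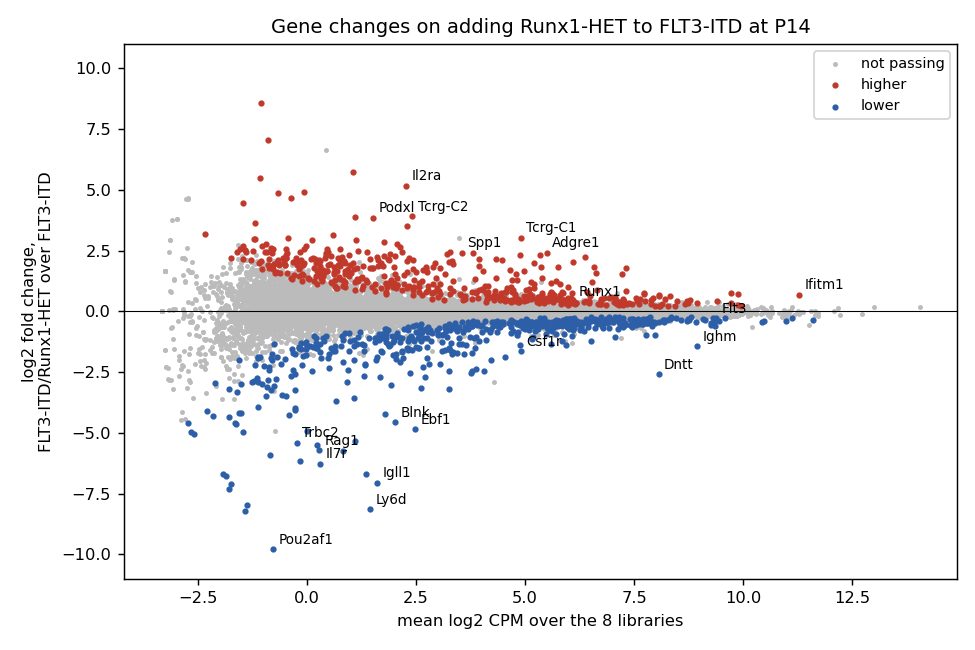
Log2 fold change of FLT3-ITD/Runx1-HET over FLT3-ITD (vertical axis) against the mean log2 CPM over the 8 libraries (horizontal axis), 1 point per tested gene, with genes that rose in red and genes that fell in blue. The genes with the largest falls are lymphoid (Pou2af1, Ly6d, Igll1, Il7r), and Il2ra and T cell receptor gamma constant genes lie at the top among genes of moderate level.

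The deepest falls were in genes of the early B lineage. Of 14 B-lineage genes tested, 11 fell and none rose, and their median log2 fold change was -5.60 (-5.48 with genes at almost no counts set to their bound), beside -0.013 over all genes. Ebf1 (chr11:44617317-45008091, plus strand), the transcription factor that commits progenitors to the B lineage, was at 18.5, 84.5, 11.4 and 32.4 CPM in FLT3-ITD. It was at 0.236, 2.51, 1.45 and 1.05 CPM in FLT3-ITD/Runx1-HET, a log2 fold change of -4.85 ± 0.70 (adjusted p = 0.00017). The FLT3-ITD libraries differed widely among themselves, library 2 being the highest in most of these genes, and every one of them was above every FLT3-ITD/Runx1-HET library. In bulk RNA, fewer cells of a type and less RNA per cell cannot be told apart.

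The surrogate light chain genes of the pre-B cell receptor followed the same order. Igll1 was at 13.8, 116, 9.98 and 36.5 CPM in FLT3-ITD and at 0, 0.858, 0.299 and 0.234 in FLT3-ITD/Runx1-HET (-7.05 ± 1.26, adjusted p = 0.00147). Vpreb1 was at 3.21, 19.8, 2.81 and 6.66 CPM against 0.378, 0.491, 0.847 and 0.996 in FLT3-ITD/Runx1-HET (-3.57 ± 0.63, adjusted p = 0.000658). For both genes library 2 of FLT3-ITD stood far above the other libraries, and the groups did not overlap.

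Cd79a and Blnk were also low in the heterozygous libraries. Cd79a, the signalling chain of the receptor, was at 10.8, 73.4, 8.84 and 22.7 CPM in FLT3-ITD and at 0.0472, 0.429, 0.0997 and 0.586 in FLT3-ITD/Runx1-HET (-6.70 ± 0.98, adjusted p = 0.000192). Blnk, the adaptor downstream of it, was at 12.5, 45.7, 7.71 and 19.1 CPM against 0.802, 1.41, 0.747 and 0.645 in FLT3-ITD/Runx1-HET (-4.57 ± 0.56, adjusted p = 2.15e-05). In both genes the lowest FLT3-ITD library was several times the highest FLT3-ITD/Runx1-HET library.

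Pou2af1, a B cell coactivator, had 419 counts over the 4 FLT3-ITD libraries and 0 over the 4 FLT3-ITD/Runx1-HET libraries. With the floor of 3 counts that a group total of 0 allows, it was at least 129.6-fold lower (adjusted p = 0.00172). Blk, a Src family kinase of B cells, had 142 counts against 0 and was at least 43.9-fold lower (adjusted p = 0.000178). Both bounds pool the counts of a group and cover counting only, not the spread between libraries. Library 2 of FLT3-ITD stood far above the rest of its group for Blk (4.98 CPM), so that bound leans on it. Both genes passed in each of the 8 leave-one-out fits (adjusted p at most 0.00641 for Pou2af1 and 0.00105 for Blk). Mzb1, a chaperone of B cells and plasmacytoid dendritic cells that belongs to no list used here, went from 15.3, 77, 16 and 23.8 to 5.57, 3.19, 1.94 and 3.63 CPM (-3.19 ± 0.48, adjusted p = 0.000242). With only these 2 groups in the fit Pou2af1 and Mzb1 did not pass (adjusted p = 0.161 and 0.0552). Cd79b, Cd24a and Bank1 were the B-lineage genes that did not pass, with log2 fold changes of -0.41, -0.25 and -0.071.

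Library 2 of FLT3-ITD set the size of these falls but not the calls. Without it the log2 fold change was -4.02 for Ebf1, -3.87 for Blnk, -5.67 for Cd79a, -5.91 for Igll1, -2.63 for Vpreb1 and -2.34 for Mzb1. Leaving out library 2 of FLT3-ITD/Runx1-HET moved Igll1 to -7.95, and leaving out library 4 moved Cd79a to -7.31. All of these genes passed in each of the 8 fits that left out 1 library, and 11 to 12 of the 14 B-lineage genes fell in each of them. Without both Xist libraries 10 fell.

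Genes of lymphoid priming, which multipotent progenitors express before they commit, fell almost as a group. Of 23 such genes tested, 16 fell and none rose (median log2 fold change -0.93). Their summed level was 4954 to 5866 CPM in FLT3-ITD and 3089 to 3367 in FLT3-ITD/Runx1-HET. Counts of 15 to 18 falls were found when any 1 library was left out, 15 with the sex term and 13 without both Xist libraries.

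Dntt, the terminal transferase that adds bases at antigen receptor joints, was at 623, 729, 706 and 592 CPM in FLT3-ITD. It was at 103, 145, 95.4 and 95.2 CPM in FLT3-ITD/Runx1-HET, a log2 fold change of -2.60 ± 0.21 (adjusted p = 3.33e-08). The 2 groups were tight and far apart for this gene. Rag2, a subunit of the recombinase that cuts antigen receptor genes, was at 20.6, 61.6, 21.5 and 30.9 CPM against 5.29, 6.07, 6.33 and 6.62 in FLT3-ITD/Runx1-HET (-2.47 ± 0.28, adjusted p = 4.08e-06). Its partner Rag1 was at 5.15, 19.3, 2.21 and 5.54 CPM against 0.142, 0.245, 0.0498 and 0.176 in FLT3-ITD/Runx1-HET (-5.70 ± 0.83, adjusted p = 0.000158). Il7r, the interleukin-7 receptor chain of lymphoid progenitors, was at 4.49, 17.6, 5.74 and 7.33 CPM against 0, 0.123, 0.149 and 0.176 in FLT3-ITD/Runx1-HET (-6.27 ± 0.56, adjusted p = 4.73e-08). All 3 again had their highest value in library 2 of FLT3-ITD, and without it the log2 fold change was -4.81 for Rag1 and -5.68 for Il7r.

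The receptors Ccr9, Ccr7 and Gfra2 of the same list fell. Ccr9, a chemokine receptor of thymus-seeding progenitors, was at 11.3, 18.3, 10.1 and 13.1 CPM in FLT3-ITD and at 0.708, 0.184, 0.199 and 0.117 in FLT3-ITD/Runx1-HET (-5.34 ± 0.49, adjusted p = 2.35e-07), and the value was -6.24 without library 1 of the latter. Ccr7, another chemokine receptor, was at 6.72, 12, 7.77 and 5.93 CPM against 3.07, 1.9, 1.99 and 3.11 in FLT3-ITD/Runx1-HET (-1.68 ± 0.25, adjusted p = 4.44e-05). Gfra2, a receptor of the GDNF family, was at 1.64, 19.4, 1.55 and 5.71 CPM against 0.0944, 0.0613, 0.0498 and 0.176 in FLT3-ITD/Runx1-HET (-6.13 ± 1.05, adjusted p = 0.000839, -4.87 without library 2 of FLT3-ITD). None of the 3 genes overlapped between the groups.

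Ighm, the heavy chain constant gene whose sterile transcripts appear in lymphoid-primed progenitors, was at 749, 1041, 768 and 729 CPM in FLT3-ITD and at 228, 303, 422 and 262 in FLT3-ITD/Runx1-HET (-1.43 ± 0.18, adjusted p = 1.12e-05). Smaller falls were in Satb1, a chromatin organizer (-0.93 ± 0.11, adjusted p = 3.23e-06), Notch1, a receptor of T cell fate (-0.91 ± 0.14, adjusted p = 6.44e-05), and Evl, an actin regulator (-1.35 ± 0.20, adjusted p = 3.28e-05). Transcription factors of the same list that did not pass were Ikzf1 (-0.13), Bcl11a (-0.26), Tcf3 (0.031) and Foxo1 (-0.094).

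**Figure D2:**
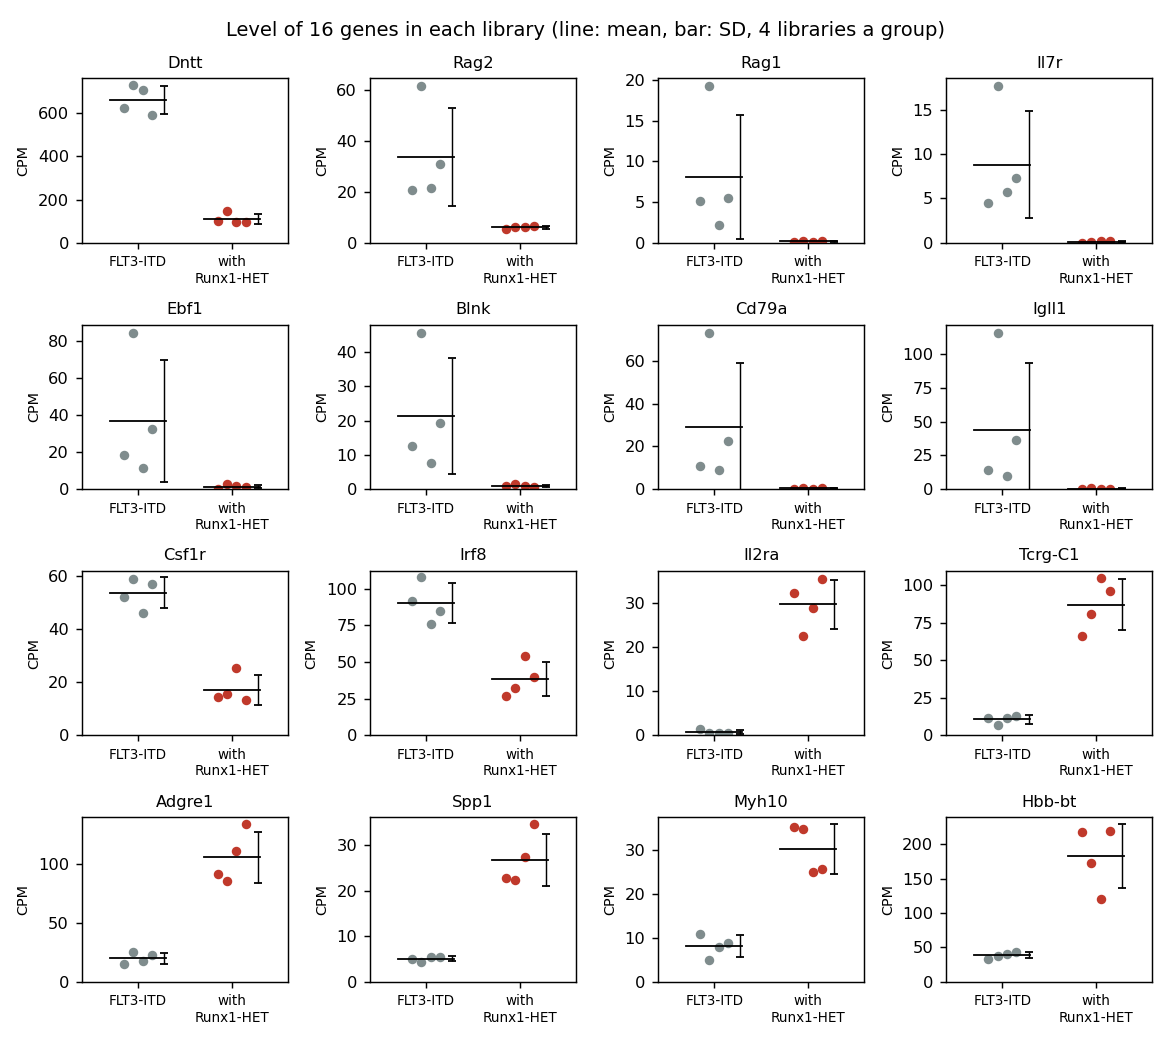
CPM of 16 genes in each library (points), with the group mean (line) and SD (bar, ending at 0 where it would go below), for 4 FLT3-ITD libraries in grey and 4 FLT3-ITD/Runx1-HET libraries in red. The groups do not overlap in any of the 16 genes, as in 12.4% of all tested genes, but several were chosen only among genes without overlap. One FLT3-ITD library, library 2, is the highest in Rag1, Rag2, Il7r, Ebf1, Blnk, Cd79a and Igll1.

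T-lineage and NK genes were lower in part. Of 17 tested, 7 fell and none rose (median log2 fold change -1.61). The falls were 5 without library 4 of FLT3-ITD/Runx1-HET, 8 without library 4 of FLT3-ITD and 5 without both Xist libraries. Trbc2, a T cell receptor beta constant gene, was at 2.37, 7.2, 3.64 and 3.92 CPM in FLT3-ITD and at 0.0472, 0, 0.0997 and 0.234 in FLT3-ITD/Runx1-HET (-5.41 ± 0.49, adjusted p = 1.58e-08; -6.19 without library 4 of the latter). Trbc1 had 31 counts against 1, a ratio of 28.8 (95% counting interval 4.79 to 1172). The 2 constant genes are near-identical, so reads could be split between them. Cd6, a costimulatory receptor, had a log2 fold change of -1.70 ± 0.21 (adjusted p = 2.56e-06). Lck, the kinase of the T cell receptor, was at -1.07 ± 0.15 (adjusted p = 3.29e-05) and Cd7 at -1.61 ± 0.40 (adjusted p = 0.0106) on the same scale. Gata3, a T cell transcription factor, had a value of 0.68 ± 0.23 and did not pass, and Cd3e was at 0 throughout.

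Outside that list, all 4 T cell receptor gamma constant genes rose. This locus was listed after its counts were seen. Tcrg-C1 (chr13:19214103-19217024, plus strand) was at 11.5, 6.6, 11.5 and 13.2 CPM in FLT3-ITD and at 66, 81.1, 105 and 96.4 in FLT3-ITD/Runx1-HET (3.02 ± 0.25, adjusted p = 8.61e-09). Tcrg-C2 was at 0.803, 1.57, 1.49 and 1.57 CPM against 14.5, 21.1, 24.2 and 21.7 in FLT3-ITD/Runx1-HET (3.92 ± 0.26, adjusted p = 1.51e-10). Tcrg-C4 was at 1.68, 1.68, 2.81 and 1.12 CPM against 8.59, 9.87, 8.67 and 8.03 in FLT3-ITD/Runx1-HET (2.27 ± 0.24, adjusted p = 1.68e-07). None of them overlapped between the groups. Tcrg-C1, Tcrg-C2 and Tcrg-C3 are close copies of each other, so their separate values are uncertain. The sum over the 4 genes, which does not depend on that split, was 14.2, 9.85, 16 and 16 CPM in FLT3-ITD and 91.7, 116, 143 and 131 in FLT3-ITD/Runx1-HET. All 4 rose also without both Xist libraries.

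Il2ra (chr2:11642807-11693193, plus strand), the interleukin-2 receptor alpha chain and a STAT5 target, had the highest rise among genes of at least moderate level. It was at 1.53, 0.487, 0.478 and 0.616 CPM in FLT3-ITD and at 32.1, 22.4, 28.9 and 35.4 in FLT3-ITD/Runx1-HET (5.16 ± 0.43, adjusted p = 9.39e-09; 5.80 without library 1 of FLT3-ITD). All 4 heterozygous libraries were far above the highest FLT3-ITD library. Podxl, a sialomucin listed with it, was at 0.949, 0.433, 0.717 and 0.728 CPM against 9.2, 9.5, 10.02 and 13 in FLT3-ITD/Runx1-HET (3.85 ± 0.38, adjusted p = 6.25e-08). Pim2, a serine/threonine kinase that promotes survival, was at 30.00, 20.7, 26.1 and 23.6 CPM against 47.9, 47.8, 58.7 and 63.6 in FLT3-ITD/Runx1-HET (1.12 ± 0.18, adjusted p = 0.000115). Of 17 STAT5 target genes tested, 6 rose and 2 fell, beside 3.31% and 3.9% of all genes. The other risers were the feedback regulators Cish (0.57 ± 0.14, adjusted p = 0.0111) and Socs2 (0.68 ± 0.20, adjusted p = 0.0477) and the kinase Pim1 (0.50 ± 0.14, adjusted p = 0.0297). Of these, Cish did not pass without library 2 of FLT3-ITD, and Socs2 and Pim1 passed in only 1 and 2 of the 8 leave-one-out fits (log2 fold changes 0.58 to 0.73 and 0.41 to 0.63). Neither Socs2 nor Pim1 passed with the sex term (adjusted p = 0.0963 and 0.0836) or without both Xist libraries (0.262 and 0.555). Without library 2 of FLT3-ITD 3 rose and 1 fell, and 3 to 6 rose over the leave-one-out fits. The 2 that fell were the cyclins Ccnd2, at 707, 953, 638 and 721 CPM against 516, 483, 508 and 518 in FLT3-ITD/Runx1-HET (-0.58 ± 0.095, adjusted p = 0.00017), and Ccnd1 (-1.16 ± 0.28, adjusted p = 0.0103), the latter not passing without library 2 of FLT3-ITD (adjusted p = 0.0625).

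Feedback genes of the MAPK pathway did not move as one. Of 12 tested, 3 fell (Dusp6, Il1r1 and Ier3) and none rose, beside 3.9% and 3.31% of all genes. Dusp6, the ERK phosphatase, was at 45.1, 54.8, 42.7 and 41.3 CPM in FLT3-ITD and at 17.7, 11.1, 6.98 and 13.8 in FLT3-ITD/Runx1-HET (-1.89 ± 0.28, adjusted p = 0.000182). It was at 203 ± 49.96 CPM in wild type (SD, n = 4), and FLT3-ITD alone stood -2.14 ± 0.26 from wild type on the log2 scale (adjusted p = 1.78e-05). These 2 groups differ in sex, and their comparison was not fitted with the sex term. Ier3, an early response gene (-0.46 ± 0.14, adjusted p = 0.0431), passed in only 2 of the 8 leave-one-out fits (-0.61 to -0.38), and not with the sex term (adjusted p = 0.126), without both Xist libraries (0.577) or with only the 2 groups in the fit (0.102). Without both Xist libraries Il1r1 did not pass either (0.0836). Spry1, Spry2, Spry4, Spred1, Dusp4 and Dusp5 did not pass.

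Myeloid progenitor genes were lower in part. Of 25 granulocyte-monocyte progenitor genes, 4 fell and none rose, of 18 monocyte and macrophage genes 7 fell and 1 rose, and of 16 neutrophil granule genes 2 fell. Over all genes 3.9% fell and 3.31% rose. Without library 3 of FLT3-ITD/Runx1-HET 7 of the 25 fell, and without both Xist libraries 4 of the 18. Csf1r, the receptor for macrophage colony-stimulating factor, was at 52.4, 59.2, 46.2 and 57.3 CPM in FLT3-ITD and at 14.5, 15.5, 25.4 and 13.2 in FLT3-ITD/Runx1-HET (-1.65 ± 0.18, adjusted p = 2.35e-07). Irf8, a transcription factor of monocytes and dendritic cells, was at 91.6, 108, 75.9 and 85 CPM against 27.1, 32.4, 54 and 39.7 in FLT3-ITD/Runx1-HET (-1.23 ± 0.18, adjusted p = 3.34e-05). In both genes library 3 was the highest of the heterozygous libraries and still below all FLT3-ITD libraries.

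Ly86, a partner of a Toll-like receptor homolog, was at 9.01, 12.2, 5.74 and 7.33 CPM against 0.614, 1.17, 2.74 and 0.762 in FLT3-ITD/Runx1-HET (-2.68 ± 0.41, adjusted p = 9.49e-05; -3.35 without library 3 of FLT3-ITD/Runx1-HET). Clec12a, an inhibitory lectin of myeloid cells, was at 74.5, 164, 82.7 and 107 CPM against 22, 39.9, 70.7 and 29.1 in FLT3-ITD/Runx1-HET (-1.40 ± 0.29, adjusted p = 0.00424; 0.0811 without both Xist libraries and 0.132 with only the 2 groups in the fit). Mpo, the granule peroxidase of granulocyte-monocyte progenitors, was at 1737, 1834, 1475 and 1876 CPM in FLT3-ITD and at 787, 1739, 3089 and 1043 in FLT3-ITD/Runx1-HET. Its range in the heterozygous group enclosed that of FLT3-ITD, with library 3 highest and library 1 lowest, and it did not pass (-0.056 ± 0.38).

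Macrophage genes moved in both directions. Adgre1, which encodes the surface marker F4/80, rose from 14.9, 25.2, 17.4 and 22.3 CPM in FLT3-ITD to 91.8, 85.8, 111 and 134 in FLT3-ITD/Runx1-HET (2.41 ± 0.24, adjusted p = 3.78e-07). Clec10a, a lectin of dendritic cells and macrophages, rose from 31.5, 20.8, 25.8 and 26.3 to 78.6, 58.5, 55.6 and 81.6 CPM (1.39 ± 0.21, adjusted p = 5.47e-05). The groups did not overlap in either gene. Vcam1, an adhesion molecule of macrophages and stroma, fell from 8.18, 25.7, 18.9 and 21.5 to 2.27, 2.02, 1.45 and 2.7 CPM (-3.13 ± 0.41, adjusted p = 3.6e-05). The complement gene C1qb fell from 3.14, 9.25, 5.68 and 7.22 to 1.37, 1.29, 0.448 and 0.82 CPM (-2.67 ± 0.34, adjusted p = 4.34e-06). Outside the list, Slc40a1, the iron exporter (22.6, 43.8, 28.6 and 35.4 to 6.32, 5.89, 4.78 and 5.63 CPM; -2.52 ± 0.28, adjusted p = 2.56e-06), and Hmox1, heme oxygenase (-2.55 ± 0.33, adjusted p = 1.67e-05), fell as well. The summed level of the 18 monocyte and macrophage genes was 343 to 469.9 CPM in FLT3-ITD and 294 to 393 in FLT3-ITD/Runx1-HET, and whether RNA of macrophages has a part in these values was not tested.

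Of 15 dendritic cell genes, 6 fell and 1 (Clec10a) rose, beside 3.9% and 3.31% of all genes. Among the 6 were Ly6d, a surface marker of lymphoid and plasmacytoid progenitors, at 16.2, 129, 19.2 and 25.5 CPM in FLT3-ITD and 0, 0.429, 0.0997 and 0.176 in FLT3-ITD/Runx1-HET (-8.14 ± 1.08, adjusted p = 7.11e-05; -6.91 without library 2 of FLT3-ITD and -9.01 without library 2 of FLT3-ITD/Runx1-HET). Tcf4, the plasmacytoid lineage factor, had a smaller change (-0.47 ± 0.075, adjusted p = 0.000103). Ccr9, Ccr7, Irf8 and Flt3 also belong to other lists given here. The defining markers Siglech, Clec9a and Cd209a were too low to be tested. None of 10 MHC class II genes passed edgeR's quasi-likelihood test or DESeq2, and 3 had an unadjusted p under 0.05 in edgeR.

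**Figure D3:**
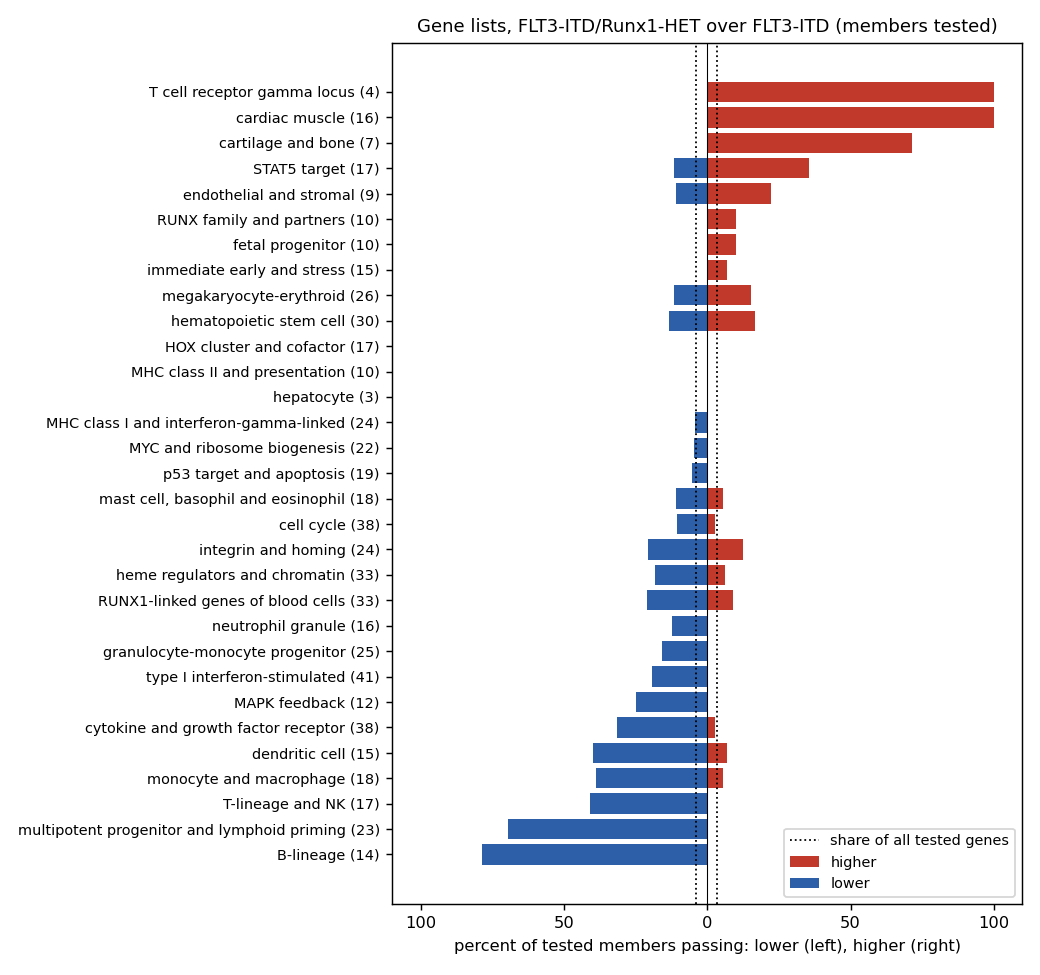
Percent of the tested members of each gene list that rose (red, right) or fell (blue, left), with the number tested in brackets and dotted lines at 3.31% and 3.9%, the shares of all tested genes. B-lineage and lymphoid priming genes have the highest shares of falls, and T cell receptor gamma, cardiac muscle and cartilage genes, which were listed after seeing the data, the highest shares of rises.

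Stem cell genes gave 5 rises and 4 falls of 30 tested, beside 3.31% and 3.9% of all genes. Mllt3, a self-renewal factor of stem cells, was at 46.5, 35.7, 52.2 and 45.9 CPM in FLT3-ITD and at 89.8, 69.2, 65.2 and 84.6 in FLT3-ITD/Runx1-HET (0.78 ± 0.11, adjusted p = 3.75e-05). Cdkn1c, the p57 cell cycle inhibitor, was at 13.9, 10.1, 11.7 and 11.7 CPM against 27.8, 21.3, 15.7 and 25.2 in FLT3-ITD/Runx1-HET (0.92 ± 0.21, adjusted p = 0.00566). Ifitm1, a membrane protein, was at 1911, 1835, 2236 and 1900.2 CPM against 2952, 3115, 3289.6 and 3384 in FLT3-ITD/Runx1-HET (0.69 ± 0.10, adjusted p = 5.15e-05). None of these 3 genes overlapped between the groups, and Cdkn1c did not pass without both Xist libraries (adjusted p = 0.11). Without those libraries 3 stem cell genes rose, and without library 4 of FLT3-ITD/Runx1-HET 2 fell.

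Mecom, a stem cell transcription factor, also rose (0.46 ± 0.12, adjusted p = 0.0147). The falls were in Ndn, an imprinted growth suppressor (-1.52 ± 0.26, adjusted p = 0.000318), Robo4, a niche receptor (-0.70 ± 0.16, adjusted p = 0.00746), Tek, the angiopoietin receptor (-1.06 ± 0.26, adjusted p = 0.0104), and Ly6a, the Sca-1 marker (-0.55 ± 0.16, adjusted p = 0.0425). Tek did not pass without library 4 of FLT3-ITD/Runx1-HET (adjusted p = 0.0563). Mecom did not pass without library 2 of FLT3-ITD or without 1 or 2 of FLT3-ITD/Runx1-HET (log2 fold change 0.36 to 0.55 over the 8 fits), and Ly6a passed only without library 4 of FLT3-ITD or 3 of FLT3-ITD/Runx1-HET (-0.67 to -0.47). Both were lost with the sex term (adjusted p = 0.0726 and 0.083) and without both Xist libraries (0.435 and 0.37), as was Robo4 in the latter (0.0965). Hlf (0.37), Procr (0.16), Meis1 (-0.016) and Gata2 (0.018) did not pass.

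Megakaryocyte and erythroid genes gave 4 rises and 3 falls of 26, beside 3.31% and 3.9% of all genes. Hbb-bt, an adult beta globin, rose from 33.8, 37.8, 40.4 and 43.2 CPM in FLT3-ITD to 218, 173, 121 and 219 in FLT3-ITD/Runx1-HET (2.24 ± 0.21, adjusted p = 3.56e-07). Its near-identical neighbour Hbb-bs did not pass (0.65 ± 0.81), so reads could be split between the 2. Gata1, the erythroid and megakaryocytic factor, fell from 13.6, 12.7, 9.02 and 8.73 to 5.66, 4.91, 6.93 and 5.63 CPM (-0.93 ± 0.19, adjusted p = 0.00253), and Epor, the erythropoietin receptor, fell as well (-1.50 ± 0.35, adjusted p = 0.00681). Klf1 and Pf4 did not pass. Of this list 2 genes rose in 5 of the 8 leave-one-out fits (without library 2, 3 or 4 of FLT3-ITD, or 1 or 2 of FLT3-ITD/Runx1-HET), with the sex term and with only the 2 groups in the fit. Without both Xist libraries 2 rose and none fell, with adjusted p = 0.0811 for Gata1 and 0.131 for Epor.

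Genes that other work links to RUNX1 in blood cells gave 3 rises and 7 falls of 33 tested. Over all genes the shares were 3.31% and 3.9%. Among the rises were Hmga2 and Myh10. Myh10, a nonmuscle myosin heavy chain that RUNX1 is known to repress in maturing megakaryocytes, was at 10.9, 4.87, 7.89 and 8.9 CPM in FLT3-ITD and at 35.3, 34.8, 25 and 25.6 in FLT3-ITD/Runx1-HET (1.88 ± 0.26, adjusted p = 1.75e-05). Hmga2, an architectural chromatin protein of fetal stem cells, was at 108, 120.3, 108 and 143 CPM against 239.9, 222, 172 and 222 in FLT3-ITD/Runx1-HET (0.83 ± 0.14, adjusted p = 0.000192). Neither gene overlapped between the groups. The falls were Ebf1, Blk, Rag1, Csf1r, Lck, Tcf7 and Anpep, the aminopeptidase CD13 (-0.89 ± 0.23, adjusted p = 0.0123; 0.0696 without library 4 of FLT3-ITD/Runx1-HET). Tcf7, a T cell factor, did not pass without library 2 of FLT3-ITD or without library 1 or 4 of FLT3-ITD/Runx1-HET (log2 fold change over the leave-one-out fits -4.91 to -3.56), nor without both Xist libraries (adjusted p = 0.15). Spi1 (0.0082), Gfi1 (-0.12), Gfi1b (-0.041) and Itga2b (0.18), further genes of this list, did not pass.

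The promoters of the genes with the largest changes were searched for TGTGGT or its reverse complement ACCACA, the core that RUNX proteins bind, in the window from 250 bases before to 50 after a RefSeq start (GRCm38.p6). Of 13317 promoters of 10459 tested genes, 13.2% held a match on either strand. The share was 15.6% of 404 promoters of genes that rose and 15.3% of 588 promoters of genes that fell. Among the named genes with the largest changes a promoter held it in 2 of 8 risers (Spp1 and Sparc) and in 2 of 7 fallers (Ebf1 and Wfdc17). A match is a description of the letters and not a binding site. The 250 bases before a RefSeq start of 3 of them follow, 5′ to 3′ on the gene's strand, with the core in capitals. They carry the RUNX core upstream of that start in genes that moved in opposite directions.
Ebf1: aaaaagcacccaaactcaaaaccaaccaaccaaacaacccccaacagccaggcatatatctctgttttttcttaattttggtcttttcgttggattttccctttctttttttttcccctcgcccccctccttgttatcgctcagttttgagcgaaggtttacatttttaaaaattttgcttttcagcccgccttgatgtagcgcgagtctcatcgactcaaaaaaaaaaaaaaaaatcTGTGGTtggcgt
Wfdc17: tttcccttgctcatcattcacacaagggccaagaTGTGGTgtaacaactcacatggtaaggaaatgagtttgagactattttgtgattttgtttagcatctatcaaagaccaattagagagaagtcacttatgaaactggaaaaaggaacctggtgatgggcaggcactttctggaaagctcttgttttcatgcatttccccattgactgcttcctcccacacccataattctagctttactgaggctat
Spp1: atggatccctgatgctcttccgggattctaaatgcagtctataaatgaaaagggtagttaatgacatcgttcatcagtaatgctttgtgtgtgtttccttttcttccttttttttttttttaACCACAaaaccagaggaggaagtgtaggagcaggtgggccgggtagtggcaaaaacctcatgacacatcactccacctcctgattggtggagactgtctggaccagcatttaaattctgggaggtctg
The Ebf1 window is chr11:44617850-44618099, on the plus strand, with the core starting at -12 from the RefSeq start. That of Wfdc17, a secreted inhibitor of macrophages, is chr11:83703806-83704055, plus strand, with the core at -216. That of Spp1 is chr5:104434861-104435110, plus strand, with the core at -128. The core thus lay near the RefSeq start used for Ebf1, a gene that fell, and farther upstream in Wfdc17, which fell, and in Spp1, which rose. Ebf1 had 2 promoters in the search, and the window shown lies inside the gene as GENCODE M21 places it.

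Wfdc17 was at 39.6, 31.1, 39.9 and 45.4 CPM in FLT3-ITD and at 7.46, 8.03, 6.78 and 6.15 in FLT3-ITD/Runx1-HET (-2.46 ± 0.21, adjusted p = 1.28e-08). Spp1, osteopontin, was at 4.93, 4.33, 5.44 and 5.54 CPM against 22.8, 22.3, 27.6 and 34.6 in FLT3-ITD/Runx1-HET (2.41 ± 0.22, adjusted p = 1.28e-08). Both groups were tight in both genes, without overlap. Other large changes were in genes with varied roles. Bhlhe40, a transcriptional repressor, rose from 33.5, 24.7, 28.6 and 28.8 to 126, 95.8, 78.3 and 111 CPM (1.83 ± 0.20, adjusted p = 8.4e-07). Enah, an actin regulator, rose from 4.93, 3.08, 4.36 and 4.14 to 24.5, 22.7, 21.6 and 21.9 CPM (2.45 ± 0.30, adjusted p = 2.91e-06).

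Further risers included enzymes and adhesion proteins. Akr1c12, an aldo-keto reductase with close copies beside it, rose from 4.56, 6.98, 6.75 and 6.61 to 35.4, 22.7, 25.1 and 48.1 CPM (2.40 ± 0.23, adjusted p = 3.3e-08). Gda, guanine deaminase (2.44 ± 0.56, adjusted p = 0.0087; 0.0821 without both Xist libraries), Mmp16, a membrane-bound metalloproteinase (2.76 ± 0.46, adjusted p = 0.000218), and Ncam2, a neural adhesion molecule (2.66 ± 0.41, adjusted p = 8.82e-05), rose as well. Among the fallers, Dtx4, an E3 ligase linked to Notch, went from 22.7, 29.6, 16.6 and 22.8 to 4.25, 5.21, 5.48 and 1.99 CPM (-2.43 ± 0.22, adjusted p = 1.28e-08). Sdc4, a heparan sulfate proteoglycan, fell (-2.38 ± 0.29, adjusted p = 1.75e-05), as did Myl4, a myosin light chain (-2.71 ± 0.35, adjusted p = 1.14e-05).

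Cytokine receptors were lower more often than higher: of 38 tested, 12 fell and 1 rose, beside 3.9% and 3.31% of all genes. The falls were 7 without library 2 of FLT3-ITD, 6 without library 4 of FLT3-ITD/Runx1-HET, 8 with the sex term and 5 without both Xist libraries. Beside Il7r, Csf1r, Epor, Flt3 and Kit, the falls included Il1r1, the interleukin-1 receptor, from 44.5, 28.8, 41.9 and 40.3 to 24.7, 18.3, 16.5 and 27.7 CPM (-0.84 ± 0.19, adjusted p = 0.00715), Il18rap (-0.63 ± 0.12, adjusted p = 0.000979) and the shared chain Il6st (-0.57 ± 0.15, adjusted p = 0.016). Kit did not pass in 5 of the 8 leave-one-out fits (without library 1, 2 or 4 of FLT3-ITD, or 3 or 4 of FLT3-ITD/Runx1-HET; log2 fold change -0.49 to -0.31), nor with the sex term (adjusted p = 0.0612). Il6st was lost without library 4 of FLT3-ITD or without 3 or 4 of FLT3-ITD/Runx1-HET (-0.64 to -0.47). Csf2rb, Il3ra, Il2rg and Csf3r did not pass.

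Of 38 cell cycle genes, 4 fell (Ccnd1, Ccnd2, Mcm2, Mcm7) and 1 rose (Cdkn1c), beside 7.2% of all genes that passed in either direction, and Mki67 had a log2 fold change of 0.073 ± 0.14. Mcm2 did not pass without library 2 of FLT3-ITD or 4 of FLT3-ITD/Runx1-HET (log2 fold change -0.43 to -0.27 over the 8 fits), nor Mcm7 without those or libraries 1 and 2 of FLT3-ITD/Runx1-HET, each left out alone (-0.43 to -0.23). Without both Xist libraries neither passed (adjusted p = 0.0579 and 0.36), and the list had 2 falls. It had 3 falls with the sex term, 1 without library 2 of FLT3-ITD and 2 without library 4 of FLT3-ITD/Runx1-HET. Of 22 MYC and ribosome biogenesis genes only Myc passed, at 757, 932, 621 and 677 CPM in FLT3-ITD and 518, 519, 662 and 528 in FLT3-ITD/Runx1-HET (-0.42 ± 0.13, adjusted p = 0.0434). The groups overlapped through library 3, and the call was lost without library 1 or 2 of FLT3-ITD or without 1, 2 or 4 of FLT3-ITD/Runx1-HET (log2 fold change -0.51 to -0.30), with the sex term (adjusted p = 0.122) and without both Xist libraries (0.38). None of 17 HOX cluster and cofactor genes passed edgeR's quasi-likelihood test or DESeq2, and 1 had an unadjusted p under 0.05 in edgeR. Hoxa9 had a log2 fold change of -0.15 and Meis1 of -0.016. Of 10 fetal progenitor genes only Hmga2 rose, and of 19 p53 target and apoptosis genes only Phlda3 fell (-1.36 ± 0.23, adjusted p = 0.000222).

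Type I interferon-stimulated genes were lower in 3 of the 4 heterozygous libraries. Their summed level was 5199.6, 4796, 3623 and 3672 CPM in FLT3-ITD and 2168, 2999, 4239 and 2458 in FLT3-ITD/Runx1-HET. Library 3, which stands apart from its group, lay within the FLT3-ITD range, and the other heterozygous libraries lay below it. Of 41 genes tested, 8 fell and none rose, beside 3.9% and 3.31% of all genes. All 41 had a negative log2 fold change (median -0.55). The 8 were Oas1g, Irf9, Stat2, Ifit2, Ifi27l2a, Parp14, Sp100 and Lgals3bp.

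The count depended on single libraries. It was 23 without library 3 of FLT3-ITD/Runx1-HET, 1 without library 4 of that group or without library 1 of FLT3-ITD, 2 and 4 without libraries 1 and 2 of the heterozygous group, and 3 without library 2 of FLT3-ITD. It was 0 without both Xist libraries, 2 with a term for sex and 4 with RLE scaling. Irf7, the interferon-induced transcription factor, shows the pattern, at 279.6, 389, 141 and 149.8 CPM in FLT3-ITD and 51.4, 98.8, 213 and 90.1 in FLT3-ITD/Runx1-HET (-1.08 ± 0.39, adjusted p = 0.101). Without library 3 its log2 fold change was -1.58 (adjusted p = 0.01). Oas1g, a member of a family of near-identical copies, was at 14.1, 14.4, 13.9 and 11.3 CPM against 4.2, 6.81, 8.32 and 3.4 in FLT3-ITD/Runx1-HET, without overlap (-1.24 ± 0.28, adjusted p = 0.00715) and passed in all 8 leave-one-out fits, but not without both Xist libraries (adjusted p = 0.0914). Among 24 genes of antigen presentation by MHC class I and of the interferon-gamma response, only the receptor chain Ifngr1 fell (-0.34 ± 0.095, adjusted p = 0.0276), and it did not pass without library 2 of FLT3-ITD or without 2 or 4 of FLT3-ITD/Runx1-HET (-0.35 to -0.30), nor without both Xist libraries (adjusted p = 0.175).

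**Figure D4:**
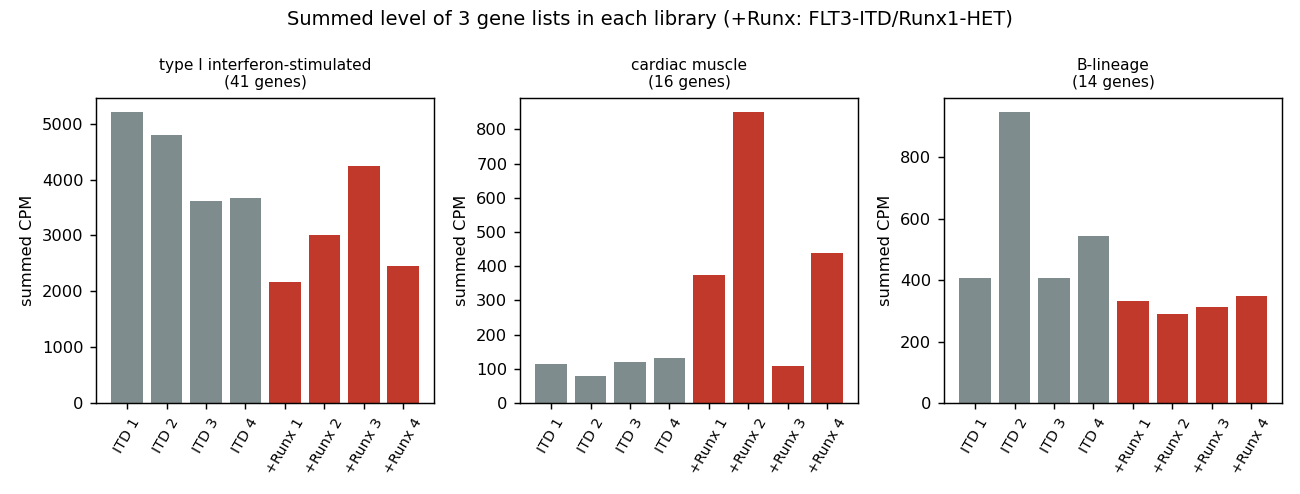
Summed CPM of 3 gene lists in each of the 8 libraries (bars; grey, FLT3-ITD; red, FLT3-ITD/Runx1-HET, labelled +Runx). Library 3 of FLT3-ITD/Runx1-HET lies with the FLT3-ITD libraries for interferon-stimulated and cardiac muscle genes but with its own group for B-lineage genes, in which library 2 of FLT3-ITD is the highest.

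Genes of cardiac muscle and connective tissue were among the risers, although the samples are labelled as progenitors. Both lists were made after seeing the data. All 16 cardiac muscle genes tested rose, and their summed level was 115, 78.4, 121 and 133 CPM in FLT3-ITD and 375, 849.6, 109 and 439 in FLT3-ITD/Runx1-HET. Library 3 was within the FLT3-ITD range and library 2 the highest, and no member was free of overlap between the groups. Myh6, the atrial myosin heavy chain, was at 22.7, 13.7, 22.5 and 24.3 CPM and 73.9, 156, 21.1 and 81.3 (1.99 ± 0.44, adjusted p = 0.00741). None of the 16 passed without both Xist libraries, which are libraries 1 and 2, and 1 passed with only these 2 groups in the fit. Without library 2 of FLT3-ITD/Runx1-HET 10 passed, and 11 without library 2 of FLT3-ITD.

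Of 7 cartilage and bone genes 5 rose (2 without both Xist libraries), and they did not all follow the same libraries. Col2a1, the cartilage collagen, was at 3.25, 2.22, 2.09 and 3.25 CPM in FLT3-ITD and at 9.35, 25.4, 2.49 and 12.2 in FLT3-ITD/Runx1-HET (2.18 ± 0.47, adjusted p = 0.00446; 1.56 without library 2 of the latter, and adjusted p = 0.1 without both Xist libraries and 0.116 with only the 2 groups in the fit), so library 3 was again at the FLT3-ITD level. Sparc, a matrix protein, was at 17.9, 11.7, 20.8 and 22.5 CPM against 87.8, 101, 82.3 and 94.5 in FLT3-ITD/Runx1-HET (2.33 ± 0.44, adjusted p = 0.00229) and was high in all 4 heterozygous libraries, as was Spp1. Timp3, a protease inhibitor of the matrix, was at 12.2, 5.68, 13.6 and 11.6 CPM against 42.7, 53, 47 and 46.1 in FLT3-ITD/Runx1-HET (2.13 ± 0.35, adjusted p = 0.000471), and Emilin2, an elastic fiber protein, at 4.63, 5.09, 2.57 and 3.92 CPM against 21.2, 17.3, 21.5 and 23.7 in FLT3-ITD/Runx1-HET (2.36 ± 0.35, adjusted p = 4.82e-05), both without overlap. Of 9 endothelial and stromal genes 2 rose (Col3a1, Col1a2) and 1 fell (Pdgfrb), and the stromal marker Pdgfra was too low to be tested. Col1a2 did not pass without library 1 or 2 of FLT3-ITD or 2 or 4 of FLT3-ITD/Runx1-HET (0.96 to 1.68), nor Pdgfrb without library 4 of the latter (-0.88 to -0.68). Without both Xist libraries Col3a1, Col1a2 and Pdgfrb did not pass (adjusted p = 0.133, 0.515 and 0.14). What part tissue other than progenitors has in these rises was not tested.

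Runx1-HET without FLT3-ITD changed far fewer genes. Against wild type, 37 genes rose and 75 fell, 0.257% and 0.521% of the 14394 tested (0.778% in all). The counts were 64 rises without library 1 of wild type, and 47 and 48 falls without library 4 of Runx1-HET and library 3 of wild type. A sex term gave 34 rises and 73 falls, and the single genes given below were not followed in that fit. These 8 libraries are none of the 8 above. Of the 476 genes that rose on the FLT3-ITD background, 19 rose in Runx1-HET over wild type, which is 3.99% of the first list and 51.4% of the second, and 3 fell. Of the 561 that fell, 28 also fell (4.99% and 37.3%) and 5 rose.

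Mllt3 was one of the genes that rose on both backgrounds, by 0.92 ± 0.11 in Runx1-HET over wild type (adjusted p = 2.46e-05), and Cd200r3, an activating receptor of basophils and mast cells, rose by 2.80 ± 0.47 (adjusted p = 0.00308) there and by 2.08 ± 0.50 (adjusted p = 0.0131; 0.101 without both Xist libraries) on FLT3-ITD. Cd48, the thrombin receptor F2r, Gimap3 and Gimap4 were others, Gimap4 not passing on FLT3-ITD without both Xist libraries (adjusted p = 0.0867). Genes lower on both backgrounds included Flt3, Ccr9, Il1r1, Il18rap, Lck, Cd6 and Cd7. Il1r1 had a log2 fold change of -1.50 ± 0.19 (adjusted p = 7.73e-05) in Runx1-HET over wild type.

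The difference of the 2 Runx1-HET effects, tested as an interaction, passed for 242 genes (1.68%), being positive for 93 (0.646%) and negative for 149 (1.04%). It passed with a positive sign for 70 of the 476 genes that rose on FLT3-ITD and with a negative sign for 135 of the 561 that fell. The interaction contains the change on FLT3-ITD from the same libraries. The agreement in sign was thus largely fixed in advance and is no independent support. DESeq2, run as another tool, gave 155 positive and 233 negative, and without both Xist libraries the counts were 49 and 92. Without library 3 of FLT3-ITD/Runx1-HET they were 174 and 227.

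B-lineage genes differed between the backgrounds. The interaction passed with a negative sign for 11 of the 14 tested and for 11 of 23 lymphoid priming genes. In Runx1-HET over wild type the median log2 fold change of the 14 was 1.28, but none of them passed there. Of the 23 lymphoid priming genes 1 rose and 2 fell in that comparison (median -0.0032). Ebf1 was at 13.1 ± 3.7 CPM in wild type and 34 ± 9.83 in Runx1-HET (SD, n = 4), a log2 fold change of 1.38 ± 0.55 (adjusted p = 0.423), and the interaction was -6.22 ± 0.89 (adjusted p = 0.000449). Dntt was at 771 ± 154 and 1166 ± 101 CPM (0.60 ± 0.19, adjusted p = 0.241), with an interaction of -3.19 ± 0.28 (adjusted p = 5.89e-07). Rag2 rose in Runx1-HET over wild type, from 27.1 ± 8.73 to 62.3 ± 7.36 CPM (1.20 ± 0.25, adjusted p = 0.0194), and the interaction was -3.67 ± 0.38 (adjusted p = 4.12e-06). Rag2 thus rose with Runx1-HET in the absence of FLT3-ITD and fell with it in its presence.

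**Figure D5:**
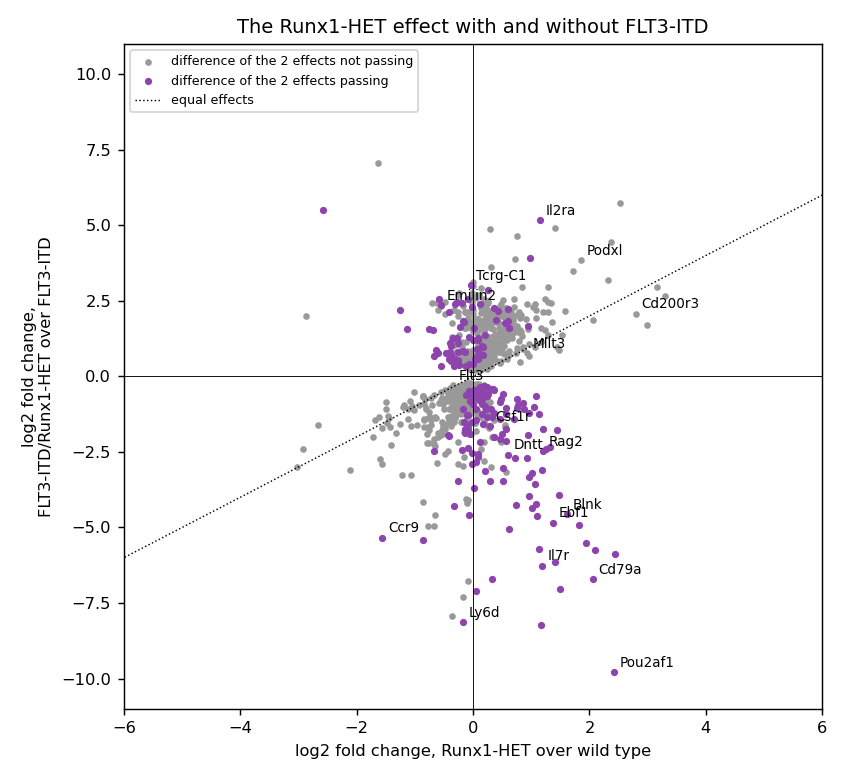
Log2 fold change of FLT3-ITD/Runx1-HET over FLT3-ITD (vertical) against that of Runx1-HET over wild type (horizontal), for the genes passing in the former. Those that also pass the interaction are in purple, and the line of equal effects is dotted. Pou2af1, Cd79a, Il7r, Ebf1, Blnk, Dntt and Rag2 lie at the lower right, below 0 with FLT3-ITD and above 0 without it in these fitted values, and Mllt3 and Cd200r3 lie near the line.

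Myeloid and other genes also differed between the backgrounds. For Csf1r the effect without FLT3-ITD was 0.29 ± 0.17 (adjusted p = 0.665) and the interaction -1.94 ± 0.24 (adjusted p = 1.6e-05). For Gata1 it was 0.76 ± 0.18 (adjusted p = 0.0388), a rise, and the interaction -1.70 ± 0.27 (adjusted p = 0.000335). Tcrg-C1 and Spp1 had large positive interactions, at 3.06 ± 0.48 (adjusted p = 0.000383) and 2.72 ± 0.31 (adjusted p = 2.52e-06). Tcrg-C1 was at 0.827 ± 0.592 CPM in wild type and 0.812 ± 0.237 in Runx1-HET, and at 10.7 ± 2.84 in FLT3-ITD (SD, n = 4). Il2ra was at 0.174 ± 0.146 CPM in wild type and 0.377 ± 0.253 in Runx1-HET, with an interaction of 4.01 ± 0.95 (adjusted p = 0.0246).

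Genes next to Runx1 were counted because an engineered allele can carry linked sequence from another strain. Of 53 genes tested within 5 Mb of it on chromosome 16, none rose and 2 fell (Ifnar2 and Vps26c, neither with the sex term or without both Xist libraries), which is 3.77% beside 7.2% over all genes. Of the 379 tested genes of the chromosome farther away, 8.18% passed.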

How the data were processed

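The deposited P14 table holds raw read counts per Ensembl gene, made by the authors with featureCounts 1.4.5 (Subread) after alignment with STAR, per the submitters' processing notes. Genome build, annotation release and strand setting are not given in the sources used here, so reads of overlapping antisense genes cannot be told apart. Per the labels' protocols, total RNA from a Qiagen micro column was amplified with Clontech SMART chemistry. Symbols and coordinates are from GENCODE M21 (GRCm38), which matched 40254 of 41388 IDs. One edgeR 4.0.16 model in R 4.3.3 (TMM, filterByExpr, robust quasi-likelihood F test) covered all 24 P14 libraries in 6 groups. The filter kept 14394 genes with 99.9% of counts. The biological coefficient of variation was 0.164, with 18 residual degrees of freedom. Levels are CPM with TMM-scaled library sizes. No 2 libraries of a group were copies (chi-square per degree of freedom at least 9.85).

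The groups compared and the 29 gene lists were chosen with earlier results of these data known, and 3 more lists were added after the counts were seen. Named genes were the RUNX family, Cbfb and Flt3. To these came the 12 largest rises and 12 largest falls, and the 6 largest interactions each way, among passing genes whose mean log2 CPM reached 2 and whose groups do not overlap, without sex-linked and unnamed genes. In each list up to 3 rises and 3 falls were added. Chosen after their values were seen were Myh6, Ttn, Mb, Col2a1, Tcrg-C4, Vpreb1, Cd34, Mpo, Irf7, Isg15, Ighm and Bhlhe40, and every other list member given with a value. Some genes that the rule or the lists hold are counted in their lists but not reported here. Alternatives were RLE scaling, DESeq2 1.42.0, no filter, only the 2 groups in the fit, a replicate block, a sex term and leaving out libraries.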

Additional observations from a re-analysis of the deposited data

Results flagged for a closer look

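In some of the 107 named genes, 1 of the 4 libraries of a group lay far from the other 3. The flag was a gap to the nearest library, over the whole range, above Dixon's 95% critical value. Chance exceeds that value in about 1 of 20 groups, so some flags are due by chance among this many genes. Library 1 of FLT3-ITD was the lowest of its group in Tcrg-C2 (0.803 CPM), Akr1c12 (4.56 CPM), C1qa (0.438 CPM) and Id2 (40.3 CPM). Library 2 of FLT3-ITD was the lowest of its group in Itga9 (2.92 CPM), Mboat2 (12.7 CPM) and Myh6 (13.7 CPM). Library 2 of FLT3-ITD was the highest of its group in Blk (4.98 CPM) and Ighm (1041 CPM). Library 4 of FLT3-ITD was the highest of its group in Cbfb (70.6 CPM). Library 3 of FLT3-ITD/Runx1-HET was the lowest of its group in Sdc4 (3.94 CPM). Library 2 of FLT3-ITD/Runx1-HET was the highest of its group in Trbc1 (0.0613 CPM), which is the only count, 1, of that group. Library 4 of FLT3-ITD was the lowest of its group in Oas1g (11.3 CPM). Library 3 of FLT3-ITD/Runx1-HET was the highest of its group in Myc (662 CPM). 

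The effect of Runx1-HET differed with and without FLT3-ITD for 242 genes by edgeR's quasi-likelihood test of the interaction (Benjamini-Hochberg adjusted p under 0.05, 4 libraries in each of 4 groups). The values that follow are differences of log2 fold changes, FLT3-ITD/Runx1-HET over FLT3-ITD minus Runx1-HET over wild type. Positive differences were found in Il2ra (4.01), Tcrg-C2 (2.94), Tcrg-C1 (3.06), Spp1 (2.72), Akr1c12 (2.29), Emilin2 (2.91), Myh10 (1.49) and Ifitm1 (1.07). Others with a positive difference were Hbb-bt (1.65), Pim2 (1.51), Id2 (1.06), Camk2b (2.70), Timp3 (2.54), Mboat2 (2.21), Tcrg-C4 (1.91) and Bhlhe40 (1.22). Among lymphoid genes the difference was negative in Ebf1 (-6.22), Blnk (-6.18), Mzb1 (-4.20), Dntt (-3.19), Rag2 (-3.67), Rag1 (-6.84), Il7r (-7.46) and Gfra2 (-7.54). Further lymphoid genes with a negative difference were Igll1 (-8.53), Ly6d (-7.97), Ccr9 (-3.79), Cd79a (-8.76), Vpreb1 (-4.64) and Ighm (-1.48). For Blk (-9.39), Pou2af1 (-12.21) and Trbc1 (-3.96) the fitted values depend on the prior count, since the FLT3-ITD/Runx1-HET libraries had 0 or 1 count in all. Myeloid and macrophage genes with a negative difference were Vcam1 (-3.34), Hmox1 (-2.64), Slc40a1 (-2.51), Wfdc17 (-1.78), Ly86 (-3.62), Csf1r (-1.94), Clec12a (-2.10) and Itgam (-0.72). To these came C1qb (-2.76) and Irf8 (-1.38). The remaining named genes with a negative difference were Myl4 (-3.44), Dtx4 (-2.24), Sdc4 (-2.30), Tek (-1.63), Trbc2 (-4.56), Gata1 (-1.70), Oas1g (-1.81) and Ifi27l2a (-1.81). The last were Ccnd2 (-0.51), Dusp6 (-1.75) and Myc (-0.77). Without both Xist libraries the interaction did not pass for Myh10 (1.24), Igll1 (-8.80), Trbc1, Itgam (-0.72), Oas1g (-1.75), Ifi27l2a (-1.60), Ccnd2 (-0.49), Myc (-0.67), Id2 (1.02), Timp3 (2.52) and Bhlhe40. With the sex term it did not pass for Myh10, Ifi27l2a, Ccnd2, Myc, Timp3 and Bhlhe40.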

How the results depend on the processing

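For FLT3-ITD/Runx1-HET over FLT3-ITD (476 higher, 561 lower), a sex term gave 307 higher, and leaving out both Xist libraries, chosen after seeing the data, gave 150 and 263. Leaving out 1 library gave 279 to 838 higher and 337 to 783 lower. DESeq2 gave 656 and 665, no filter 404 and 500, RLE scaling 509 and 522, and only the 2 groups in the fit 418 and 467. For Runx1-HET over wild type (37 and 75), DESeq2 gave 80 and 125, and leaving out 1 library 25 to 64 and 47 to 112. For the interaction (93 positive, 149 negative), DESeq2 gave 155 and 233, both Xist libraries left out 49 and 92, and leaving out 1 library 65 to 174 and 103 to 227. The cause of these shifts was not tested, beyond the smaller number of samples where libraries were left out.

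Of 107 named genes, DESeq2 ended no call, RLE scaling 1, the sex term 12, only the 2 groups 16 and both Xist libraries left out 34. Leaving out 1 library ended 3 to 19, the most without library 2 of FLT3-ITD or library 4 of FLT3-ITD/Runx1-HET. Direction changed in Runx3, Mpo and Runx2, which passed in no fit. Runx3 was at -0.0022 without the filter, -0.032 with the sex term, -0.18 without both Xist libraries and -0.074 to 0.082 over the leave-one-out fits. Mpo was at 0.057 with the sex term, 0.25 without both Xist libraries and -0.54 to 0.18 over those fits, and Runx2 at -0.044 to 0.098.

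Same-numbered libraries did not deviate together (correlations of -0.11 to 0.022, beside -0.12 to 0.13 for other pairs). With 4 libraries a group this gives no sign of a pairing by number but cannot exclude one. A replicate block gave 503 higher and 588 lower and ended 3 calls of named genes. At these depths the spread between libraries limits precision for most genes, and a gene at 0 counts is known only to lie under 3 counts per group.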
